A study of Arabidopsis thaliana with 6 samples.

Results

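The nuclear genes of photosynthesis were followed through RNA immunoprecipitation sequencing (RIP-seq) of ASI1 in Arabidopsis thaliana. A set of 56 genes was given by gene identifier, covering the light-harvesting antennae, both photosystems, electron transport and ATP synthase, the Rubisco small subunit and carbon fixation. Of these, 52 were listed in at least 1 of the deposited tables, out of 6351 genes listed in all. The table of WT libraries listed 52 of them and the table of ASI1 libraries 44, all of which were in both tables. LHCB2.1, PSBQ2, PSAL and RBCS1B were in neither table. All groups came from whole Col-0 seedlings of 14 d, grown at 22 °C in long days (16 h light, 8 h dark) on 1% sucrose and fixed with 0.5% formaldehyde. The groups were ASI1 RIP (n = 2), WT RIP (n = 2), ASI1 input (n = 1) and WT input (n = 1), with precipitation by an anti-Flag antibody and genotypes labelled ASI1 and WT. That the ASI1 line carries a Flag-tagged ASI1 protein and WT carries no tag was inferred from the antibody and these names, and neither the promoter nor the number of lines is given there. ASI1 binds RNA, carries a bromo-adjacent homology domain, and is known for its role at genes whose introns hold heterochromatin. The libraries ask which RNAs are recovered with it, and WT measures what the precipitation recovers without it.

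Light-harvesting proteins bind chlorophyll and pass excitation energy to photosystem II and photosystem I. The photosystems drive electrons from water through plastocyanin and ferredoxin to NADP, and the ATP synthase uses the resulting proton gradient. Rubisco and the Calvin cycle then fix carbon dioxide with the ATP and NADPH formed. The nuclear members of this system are read in the nucleus, translated in the cytosol and imported into chloroplasts, and their mRNAs are among the most abundant ones of green seedlings.

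Levels are given as CPM of the counts outside the 4 ribosomal RNA genes of a library, written CPM outside rRNA. The counts outside rRNA were 448561 and 362058 in ASI1 RIP, 23304 and 103549 in WT RIP, 23810.4 in the ASI1 input and 61644 in the WT input. A single count was therefore worth 2.23 and 2.76 CPM outside rRNA in ASI1 RIP, 42.9 and 9.66 in WT RIP, 42.0 in the ASI1 input and 16.2 in the WT input. At least 20 counts were reached by 43 and 29 of the 44 shared photosynthesis genes in ASI1 RIP, by 14 and 40 in WT RIP, by 14 in the input of ASI1 and by 34 in that of WT. The labels do not say whether the RIP replicates were separate cultures, so the spread between them may be technical, and each input is 1 library whose spread was not measured. In whole seedlings, fewer green cells and less RNA per green cell cannot be told apart. Root markers (7 of 9 listed in either table) summed to 548 and 358 CPM outside rRNA in ASI1 RIP, 579.7 and 253 in WT RIP, 2246 in the ASI1 input and 1337 in the WT input. Only 2 of these markers were in both tables, so the ASI1 and WT sums run over different genes. The part of root markers in the results on photosynthesis genes was not tested.

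Several photosynthesis genes have near-identical copies, and the division of reads among these copies is uncertain. The coding sequences of LHCB1.1, LHCB1.2 and LHCB1.3, which encode the main protein of light-harvesting complex II (LHCII), were 95.6% to 96.4% identical and differed at 47 of 804 positions. Those of RBCS1B, RBCS2B and RBCS3B, which encode the Rubisco small subunit, were 96.7% to 97.3% identical and differed at 25 of 546 positions. A stretch of 60 bases from each copy, the one with the most differing positions, shows where reads can tell the copies apart. The stretches are coding bases 25 to 84 of the LHCB1 copies on chromosome 1 and coding bases 91 to 150 of the RBCS copies on chromosome 5, 5′ to 3′ on the coding strand, from the RefSeq annotation of TAIR10.1. Capitals mark the 8 positions of each stretch at which the copies of a family differ.
LHCB1.1: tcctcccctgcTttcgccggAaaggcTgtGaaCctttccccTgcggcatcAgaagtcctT
LHCB1.2: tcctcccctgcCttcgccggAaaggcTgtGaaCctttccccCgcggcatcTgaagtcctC
LHCB1.3: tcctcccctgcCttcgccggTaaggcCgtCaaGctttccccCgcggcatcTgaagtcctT
RBCS1B: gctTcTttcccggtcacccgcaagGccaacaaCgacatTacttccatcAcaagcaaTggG
RBCS2B: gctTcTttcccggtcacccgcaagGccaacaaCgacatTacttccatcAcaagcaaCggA
RBCS3B: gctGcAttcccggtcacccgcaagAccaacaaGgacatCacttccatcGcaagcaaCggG
RBCS1B was in neither table, while RBCS2B and RBCS3B were in both. In addition, 17 of the 56 genes overlap a gene on the other strand and 4 a gene on the same strand. The sources used here do not say whether counting used strand, so counts of these genes are uncertain too.

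Photosynthesis genes took a smaller share of the ASI1 RIP libraries than of the WT RIP libraries. Summed over the 44 genes in both tables, their share of the counts outside rRNA was 2.97% and 1.67% in ASI1 RIP, against 4.82% and 10.5% in WT RIP. The groups did not overlap, and the ranges of counting error (95% Wilson intervals) were apart, at 2.92% to 3.02% and 1.62% to 1.71% in ASI1 RIP and 4.55% to 5.10% and 10.3% to 10.7% in WT RIP. These intervals cover counting error only, and with 2 libraries against 2 no exact test can reach significance. The inputs differed in the same direction, with 4.74% in the ASI1 input (4.47% to 5.01%) and 9.55% in the WT input (9.32% to 9.78%). Relative to the input of its own genotype, the share was 0.626 and 0.352 times as large in ASI1 RIP and 0.504 and 1.1 times as large in WT RIP. On this measure ASI1 RIP replicate 1 lay above WT RIP replicate 1, so the groups overlapped. In each of the 8 role groups the shares of both ASI1 RIP libraries lay below those of both WT RIP libraries.

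**Figure D1:**
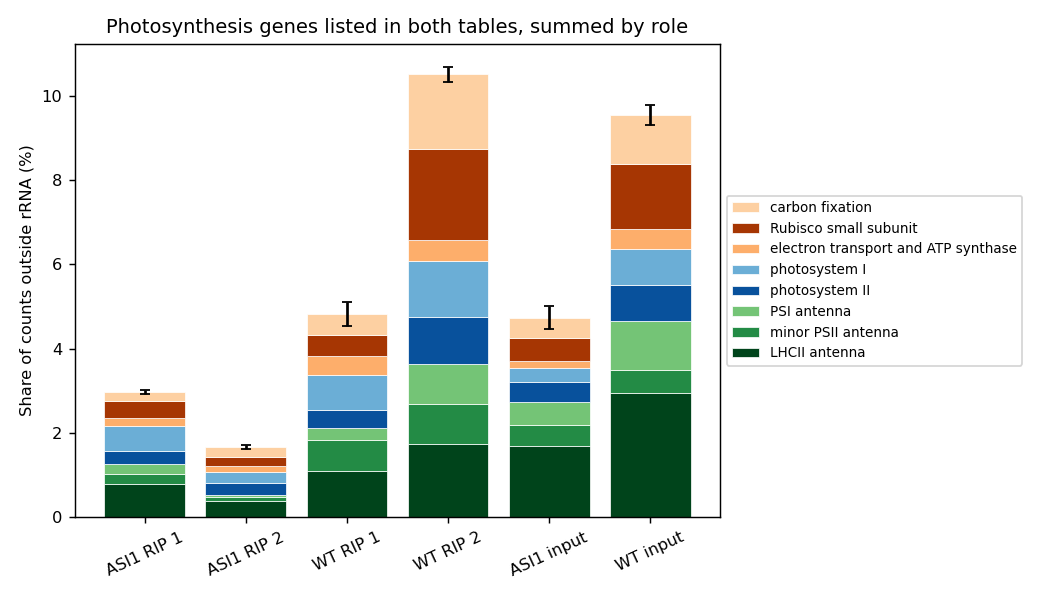
Share of the counts outside rRNA (%) taken by the 44 photosynthesis genes listed in both tables, stacked by role, in each library, with the 95% Wilson interval of the total for counting error only. The ASI1 RIP bars reach 2.97% and 1.67%, the WT RIP bars 4.82% and 10.5%, the ASI1 input 4.74% and the WT input 9.55%.

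The antenna of photosystem II held LHCB1.3, which had the highest level of the members in both inputs and both ASI1 RIP libraries but not in the WT RIP libraries, where PSAD1 in replicate 1 and RCA in replicate 2 were higher. LHCB1.3 (AT1G29930, chromosome 1, 10477885 to 10479114 on TAIR10.1, plus strand, 1 exon) had 3928 and 2463 CPM outside rRNA in ASI1 RIP, 3717 and 9077 in WT RIP, 9974 in the ASI1 input and 15163 in the WT input. Its 4 RIP values overlapped between genotypes, and all of them were below both inputs. LHCB1.5 (AT2G34420) had 1706 and 975 CPM outside rRNA in ASI1 RIP, 3801 and 3037 in WT RIP, 3253 in the ASI1 input and 3796 in the WT input. Here both ASI1 RIP values lay below both WT RIP values. In edgeR's quasi-likelihood test the log2 fold of ASI1 RIP over WT RIP was -1.0 (SE 0.87, adjusted p = 0.887) for LHCB1.3 and -1.35 (SE 1.46, adjusted p = 0.887) for LHCB1.5, and without WT RIP replicate 2 that of LHCB1.3 was -0.22. The other LHCII genes in both tables, LHCB1.1, LHCB1.2, LHCB1.4 and LHCB3, ranged over 100.3 to 890.3 CPM outside rRNA in replicate 1 and 11.6 to 409.6 in replicate 2 of ASI1 RIP. In WT RIP they ranged over 624 to 1099 in replicate 1 and 639.8 to 1972 in replicate 2. LHCB1.1, LHCB1.2 and LHCB3 were lower in both ASI1 RIP libraries than in both WT RIP libraries, and LHCB1.4 overlapped.

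The minor antenna proteins LHCB4, LHCB5 and LHCB6 link LHCII to the photosystem II core. LHCB4.2 (AT3G08940) had 221 and 412 CPM outside rRNA in ASI1 RIP, 5217 and 2109 in WT RIP, 734 in the ASI1 input and 702 in the WT input. The 2 inputs were close, both ASI1 RIP values lay below them and both WT RIP values above them. LHCB5 (AT4G10340) had 681 and 49.0 CPM outside rRNA in ASI1 RIP, 892 and 4207 in WT RIP, 3109.6 in the ASI1 input and 2925 in the WT input. The ASI1 RIP values were again the lowest, but they differed 13.9-fold from each other. The log2 fold of ASI1 RIP over WT RIP in edgeR was -3.53 (SE 2.02, adjusted p = 0.887) for LHCB4.2 and -2.81 (SE 1.78, adjusted p = 0.887) for LHCB5. For LHCB5 it was -5.66 without ASI1 RIP replicate 1 and -1.30 without WT RIP replicate 2. LHCB6 showed the same order of groups, with 361 and 60.6 CPM outside rRNA in ASI1 RIP and 446 and 1865 in WT RIP, while LHCB4.1 overlapped, with 1133 and 274 in ASI1 RIP and 847 and 1217 in WT RIP.

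Of the antenna proteins of photosystem I, LHCA1 separated the genotypes and LHCA2 did not. LHCA1 (AT3G54890) had 284 and 185 CPM outside rRNA in ASI1 RIP, 1115 and 3376 in WT RIP, 1900.3 in the ASI1 input and 2006 in the WT input. LHCA2 (AT3G61470) had 734 and 320.2 CPM outside rRNA in ASI1 RIP, 357 and 2169.5 in WT RIP, 1814 in the ASI1 input and 4178 in the WT input. Apart from WT RIP replicate 2, the RIP values of LHCA2 were below both inputs. In edgeR the log2 fold of ASI1 RIP over WT RIP was -3.26 (SE 2.04, adjusted p = 0.887) for LHCA1 and -1.26 (SE 1.85, adjusted p = 0.887) for LHCA2, and the fold of LHCA2 was 0.62 without WT RIP replicate 2. LHCA3 and LHCA4 had 366 and 1060.4 CPM outside rRNA in ASI1 RIP replicate 1 but 26.0 each in replicate 2, against 535 and 847 in WT RIP replicate 1 and 2271 and 1764 in WT RIP replicate 2.

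**Figure D2:**
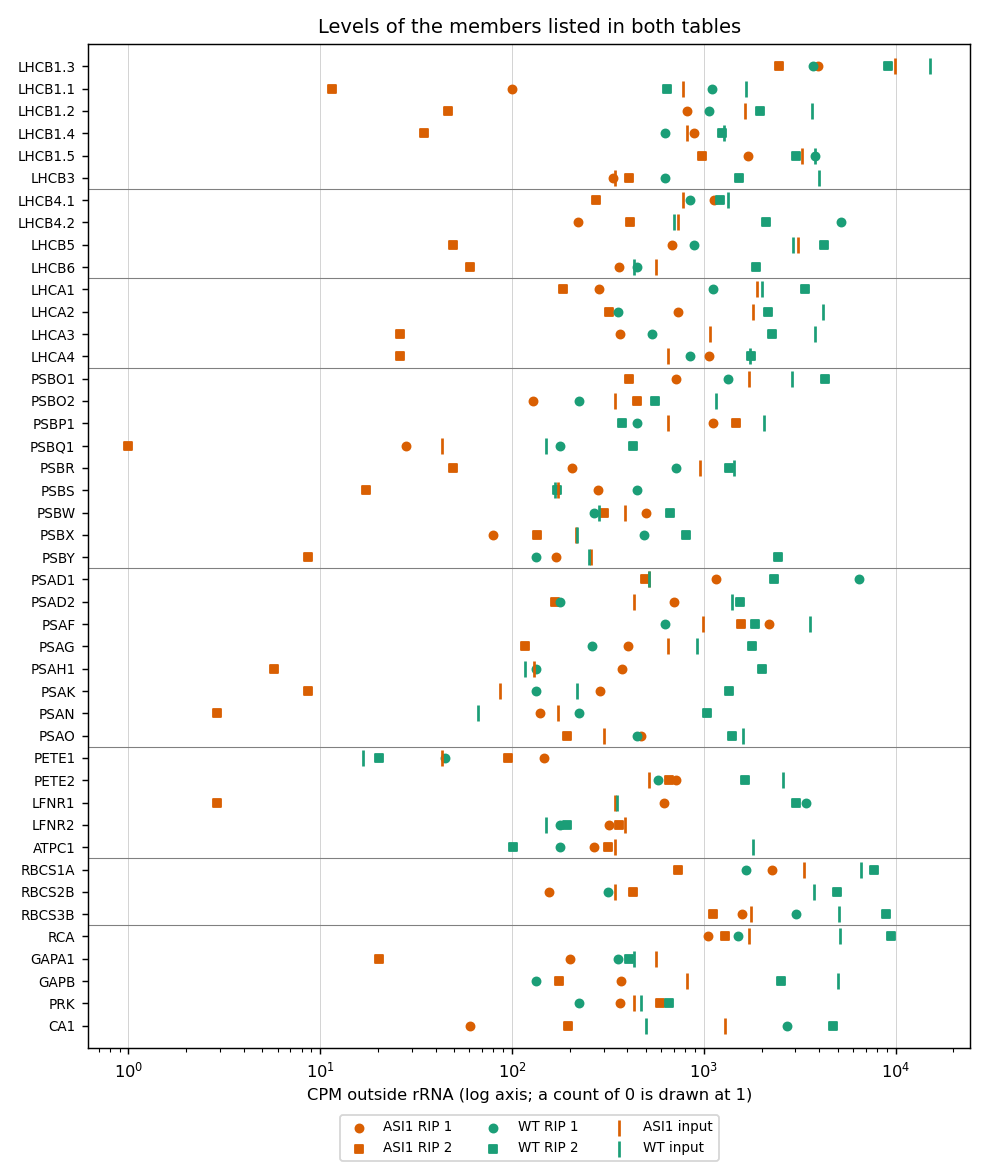
Level (CPM outside rRNA, log axis) of each of the 44 photosynthesis genes listed in both tables, in the ASI1 libraries (orange) and the WT libraries (green), with RIP replicates as circles (1) and squares (2) and inputs as bars; lines part the 8 role groups. ASI1 RIP points lie left of both WT RIP points for 20 genes and right of both for 4. Over all 2319 shared genes these orders held for 4.74% and 26%. The ASI1 RIP square of PSBQ1, with 0 counts, is drawn at 1.

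In photosystem II, PSBO1 and PSBP1 separated the genotypes in opposite directions. PSBO1 (AT5G66570), the manganese-stabilising protein of the oxygen-evolving complex, had 713 and 407 CPM outside rRNA in ASI1 RIP, 1338 and 4288 in WT RIP, 1728 in the ASI1 input and 2875 in the WT input. PSBP1 (AT1G06680), another extrinsic protein of that complex, had 1114 and 1465 CPM outside rRNA in ASI1 RIP, 446 and 375 in WT RIP, 648 in the ASI1 input and 2056 in the WT input. For PSBP1 both ASI1 RIP values lay above both WT RIP values, whereas those of PSBO1 lay below. The PSBP1 gene also overlaps AT1G06670 on the same strand and AT1G06690 on the other strand. The log2 fold of ASI1 RIP over WT RIP in edgeR was -2.33 (SE 1.78, adjusted p = 0.887) for PSBO1 and 1.68 (SE 2.21, adjusted p = 0.887) for PSBP1, and the fold of PSBP1 was -0.27 in the DESeq2 fit and 1.11 with trimmed mean of M-values (TMM) factors in edgeR. PSBQ1 (AT4G21280), the partner of PSBP in the complex, had 28.0 CPM outside rRNA and 0 in ASI1 RIP, where 3 counts in the second library would be 8.29, against 178 and 426 in WT RIP. PSBR (AT1G79040), a small thylakoid protein that helps to hold PSBP, had 205 and 49.0 CPM outside rRNA in ASI1 RIP and 713 and 1358 in WT RIP. PSBX (AT2G06520), a small membrane subunit, had 79.2 and 136 CPM outside rRNA in ASI1 RIP and 490.5 and 811 in WT RIP. These 3 genes did not overlap between the genotypes. PSBO2, PSBW, PSBY and PSBS, the last being the sensor of excess light, overlapped, with values of 8.65 to 501 CPM outside rRNA in ASI1 RIP and 134 to 2433 in WT RIP.

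In photosystem I, PSAD1 was lower and PSAF overlapped. PSAD1 (AT4G02770), which helps to dock ferredoxin on the stromal side, had 1163 and 496 CPM outside rRNA in ASI1 RIP, 6421 and 2332 in WT RIP, and 518 in each of the ASI1 and WT inputs. Both WT RIP values were above the inputs, and the ASI1 RIP values lay on either side of them. PSAF (AT1G31330), which helps to bind plastocyanin on the lumen side, had 2188 and 1560.4 CPM outside rRNA in ASI1 RIP, 624 and 1855 in WT RIP, 993 in the ASI1 input and 3559.8 in the WT input. Both ASI1 RIP values exceeded their own input and both WT RIP values were below theirs. The log2 fold of ASI1 RIP over WT RIP in edgeR was -2.40 (SE 1.78, adjusted p = 0.887) for PSAD1 and 0.58 (SE 1.74, adjusted p = 0.905) for PSAF, and the direction of PSAF turned in other fits, at -0.19 with TMM factors and -1.63 with DESeq2. Of the other 6 members, PSAN alone separated the genotypes, with 139.8 and 2.88 CPM outside rRNA in ASI1 RIP and 223 and 1034 in WT RIP. PSAH1, PSAK and PSAN stood at 5.77, 8.65 and 2.88 CPM outside rRNA in ASI1 RIP replicate 2, which is about 1 to 3 counts each, against 373, 287 and 139.8 in replicate 1.

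The electron transport group held 3 of the 4 genes that were higher in both ASI1 RIP libraries than in both WT RIP libraries. Over all shared genes, 26% had this order. Plastocyanin is the lumen protein that carries electrons to photosystem I. Its minor copy PETE1 (AT1G76100) had 147 and 95.2 CPM outside rRNA in ASI1 RIP and 44.6 and 20.3 in WT RIP, the WT values resting on 1.04 and 2.1 counts, with 43.2 in the ASI1 input and 16.7 in the WT input at about 1 count each. The copy PETE2 (AT1G20340) had 715 and 655 CPM outside rRNA in ASI1 RIP, 579.7 and 1642 in WT RIP, 518 in the ASI1 input and 2590.5 in the WT input, so the genotypes overlapped. Ferredoxin-NADP reductase (LFNR) hands the electrons to NADP, and its copies LFNR1 and LFNR2 differed. LFNR1 (AT5G66190) had 618 and 2.88 CPM outside rRNA in ASI1 RIP, 3389 and 3021 in WT RIP, 346 in the ASI1 input and 351 in the WT input. LFNR2 (AT1G20020) had 319 and 361 CPM outside rRNA in ASI1 RIP, 178 and 193 in WT RIP, 389 in the ASI1 input and 150.4 in the WT input. LFNR1 was thus lower and LFNR2 higher in both ASI1 RIP libraries than in both WT RIP libraries. ATPC1 (AT4G04640), the gamma subunit of the ATP synthase, had 268 and 317 CPM outside rRNA in ASI1 RIP, 178 and 101 in WT RIP, 346 in the ASI1 input and 1805 in the WT input. The WT RIP values rested on 4.16 and 19.9 counts for LFNR2 and on 4.16 and 10.5 counts for ATPC1. None passed the test. The log2 fold of ASI1 RIP over WT RIP in edgeR was -0.72 (SE 2.08, adjusted p = 0.905) for PETE2, -3.37 (SE 2.16, adjusted p = 0.887) for LFNR1, 0.89 (SE 2.68, adjusted p = 0.905) for LFNR2 and 1.15 (SE 2.6, adjusted p = 0.892) for ATPC1. In the DESeq2 fit LFNR2 stood at -1.12 and ATPC1 at -0.71, whereas with TMM factors in edgeR they stood at 0.27 and 0.61. LFNR1 stood at -9.70 without ASI1 RIP replicate 1 and -2.37 without replicate 2, and PETE2 at 0.19 without WT RIP replicate 2.

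Among the carbon fixation genes CA1 had the lowest fold of ASI1 RIP over WT RIP of all the members, although LFNR1 was lower without ASI1 RIP replicate 1 (-9.70, against -4.23 for CA1) and with a replicate block (-5.86, against -5.02). CA1, a chloroplast carbonic anhydrase (AT3G01500, chromosome 3, 194426 to 198664 on TAIR10.1, minus strand), had 60.6 and 196 CPM outside rRNA in ASI1 RIP, 2719.9 and 4689 in WT RIP, 1296 in the ASI1 input and 501 in the WT input. Both ASI1 RIP values were below the ASI1 input and both WT RIP values above the WT input. Its log2 fold between ASI1 RIP and WT RIP was -4.84 with an SE of 2.15 and an adjusted p of 0.887 in edgeR, and with DESeq2 it was -6.94 with an adjusted p of 0.0159. In the other fits of this gene, all of them with edgeR, the fold ran from -5.92 to -4.23 and the adjusted p from 0.468 to 1.00. The gene also overlaps AT3G01510 on the same strand. RCA (AT2G39730), the Rubisco activase, had 1051 and 1292 CPM outside rRNA in ASI1 RIP, 1516 and 9408 in WT RIP, 1728 in the ASI1 input and 5148 in the WT input. Its ASI1 RIP values were the lowest of the 6. RBCS1A (AT1G67090) had 2261 and 733 CPM outside rRNA in ASI1 RIP, 1649.8 and 7715 in WT RIP, 3326 in the ASI1 input and 6568 in the WT input. RBCS3B (AT5G38410) had 1588 and 1116 CPM outside rRNA in ASI1 RIP, 3037 and 8922 in WT RIP, 1753 in the ASI1 input and 5080.3 in the WT input. Of these Rubisco genes RBCS3B separated the genotypes and RBCS1A overlapped. The log2 fold in edgeR was -2.22 (SE 1.36, adjusted p = 0.887) for RCA, -1.64 (SE 1.27, adjusted p = 0.887) for RBCS1A and -2.15 (SE 1.32, adjusted p = 0.887) for RBCS3B. Without WT RIP replicate 2 these folds were -0.36 for RCA, -0.12 for RBCS1A and -1.17 for RBCS3B. GAPA1 (AT3G26650), a subunit of the chloroplast glyceraldehyde phosphate dehydrogenase, had 200.4 and 20.2 CPM outside rRNA in ASI1 RIP and 357 and 406 in WT RIP. The GAPA1 gene also overlaps AT3G26640 on the same strand. GAPB, the partner of GAPA1, and PRK, the phosphoribulokinase, had RIP values that overlapped between the genotypes.

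A further 8 genes were listed in the WT table alone. A table lists a gene only where 2 or more of its 3 libraries are above 0, and no values of these genes in the ASI1 libraries were used. Of the 52 photosynthesis genes listed for WT, 84.6% were also in the ASI1 table, against 49.9% of all its 4650 genes outside rRNA. PETC (AT4G03280), the Rieske iron-sulfur protein of the cytochrome complex, had 44.6 and 791 CPM outside rRNA in WT RIP and 2624 in the WT input. FD2 (AT1G60950), the main leaf ferredoxin, had 89.2 and 1449.7 in WT RIP and 869 in the WT input. ATPD (AT4G09650), the delta subunit of the ATP synthase, had 446 and 1703 in WT RIP and 33.4 in the WT input. LHCB2.2, LHCB2.3, LHCB4.3, PSAE1 and PSAH2 lay between 10.1 and 713 CPM outside rRNA in WT RIP and between 33.4 and 168 in the WT input.

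Set against each other, the RIP libraries of ASI1 and WT gave no call for any photosynthesis gene in edgeR. A call needed an adjusted p under 0.05 over all 2233 genes tested and an absolute log2 fold of at least 1, and 0 of 44 photosynthesis genes met it, against 0% of all genes. At an unadjusted p under 0.05 stood 1 photosynthesis gene, CA1, and 29 genes in all. DESeq2 called 1 photosynthesis gene lower, again CA1, against 0.517% of 2319 genes. It had 25 of the 44 at an unadjusted p under 0.05, against 195 of the 2319 genes. The fitted log2 folds were below 0 for 38 of the 44 and above 0 for 6, with a median of -1.90, while the median of all genes tested was 1.89 and 25.9% of the 2189 other genes tested were below 0. The median of all genes itself differed between fits, at 1.39 with TMM factors and -0.02 with DESeq2. Relative to it, the median of the photosynthesis genes was lower by 3.79 with library sizes outside rRNA, and the difference lay between -4.85 and -2.96 in all other fits. Without WT RIP replicate 2 their median was -0.53, against 2.50 for all genes. The median level over all shared genes was 44.6 and 20.3 CPM outside rRNA in WT RIP, where a single count was worth 42.9 and 9.66. The photosynthesis genes had medians of 513 and 1777 there. All genes tested are therefore not a background matched for abundance in these fold comparisons.

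**Figure D3:**
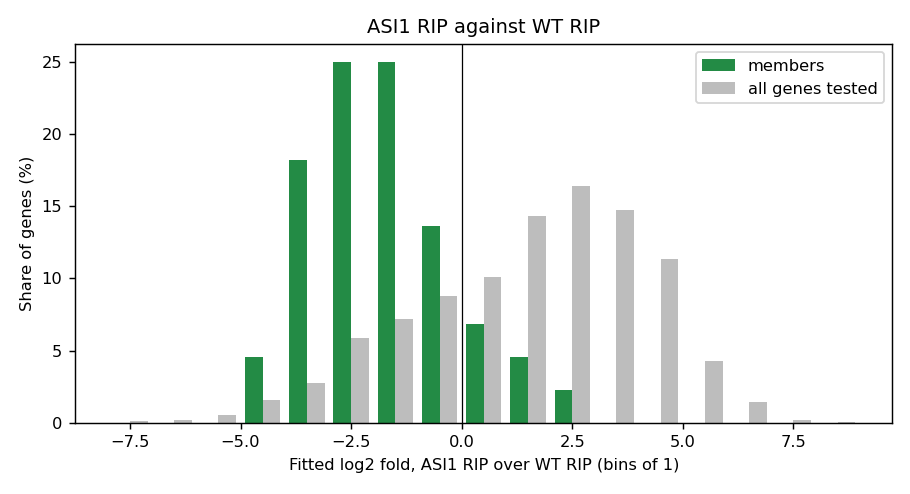
Distribution of the fitted log2 fold of ASI1 RIP over WT RIP (edgeR, bins of 1) as the share of genes (%), for the 44 photosynthesis genes (green) and all 2233 genes tested (grey). The median is -1.90 for the photosynthesis genes and 1.89 for all genes, which are not matched to them for abundance.

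Without a model, 20 of the 44 photosynthesis genes had both ASI1 RIP values below both WT RIP values, against 4.74% of the 2319 shared genes. The reverse order held for 4, PSBP1, PETE1, LFNR2 and ATPC1, against 26% of the shared genes. The photosynthesis genes are abundant, with a median of 972 CPM outside rRNA over the 6 libraries against 151 for all shared genes, and a low level in the shallow WT RIP libraries is often 0 or 1 count. Among the 342 shared genes with at least 20 counts in the WT input, 14.3% were lower in both ASI1 RIP libraries and 28.4% higher in both, and of the 34 photosynthesis genes among them 17 were lower and 2 higher. By role, the lower genes without overlap were 4 of 6 LHCII genes, 3 of 4 minor antenna genes, 2 of 4 photosystem I antenna genes, 4 of 9 photosystem II genes, 2 of 8 photosystem I genes, 1 of 5 electron transport genes, 1 of 3 Rubisco genes and 3 of 5 carbon fixation genes.

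Compared with the ASI1 input, the ASI1 RIP libraries held less of most photosynthesis genes. Both ASI1 RIP values were below the input for 25 of 44 genes, against 31.3% of all shared genes, and above it for 4 (PSBP1, PSAF, PETE1 and PETE2), against 22%. The median fitted log2 fold was -0.71, with 32 genes below 0 and 12 above, and the median of all genes was 0.10. No photosynthesis gene was called in edgeR (0 of 44, against 0.134% of all genes), and 0 had an unadjusted p under 0.05. DESeq2 called 0 of them too, again with 0 under that unadjusted p. Without ASI1 RIP replicate 1 the median was -2.18, and with TMM factors it was 0.13 while that of all genes was 1.24. By role, the share of the ASI1 RIP libraries was below the input share in both replicates for 6 of the 8 role groups. The exceptions were photosystem I, at 1.74 and 0.777 times the input, and electron transport, at 1.26 and 0.872 times. In replicate 1 the lowest was carbon fixation, at 0.423 times the input, with the photosystem I antenna at 0.449 times. In replicate 2 the photosystem I antenna was lowest, at 0.102 times.

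In WT the same comparison put more photosynthesis genes above the input. Both WT RIP values were above the WT input for 12 of 44 genes, against 10% of all shared genes, and below it for 17, against 59.3%. The median fitted log2 fold was -0.17 with 19 genes above 0 and 25 below, against -1.39 for all genes, and it was 1.02 with TMM factors and 1.12 with DESeq2. No gene of the 44 was called in edgeR (against 0.0448% of all genes) or DESeq2, and 0 had an unadjusted p under 0.05 in either. Fitted on the WT table alone, where 49 photosynthesis genes and 1497 genes in all were tested, the median was -0.15 and that of all genes 0.96, so their place relative to all genes turned with the set of genes tested. The minor antenna stood at 1.37 and 1.74 times the input share and photosystem I at 1.00 and 1.58 times. LHCII was below the input in both replicates, at 0.371 and 0.593 times, as was the photosystem I antenna, at 0.244 and 0.818 times. The other 4 role groups lay below the input in WT RIP replicate 1 and above it in replicate 2.

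The RIP over input value of ASI1 minus that of WT had a median log2 value of -0.66 over the photosynthesis genes, with 30 below 0 and 14 above, against 1.28 for all genes. No gene was called (0 of 44, against 0% of all genes), with an unadjusted p under 0.05 for 0 photosynthesis genes and 2 genes in all. DESeq2 called 0, and 1 photosynthesis gene had an unadjusted p under 0.05, against 17 genes in all. Without WT RIP replicate 2 this median was 0.35, against 2.31 for all genes, so its sign rested on that library. The comparison shares its RIP libraries with that of ASI1 RIP and WT RIP.

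**Figure D4:**
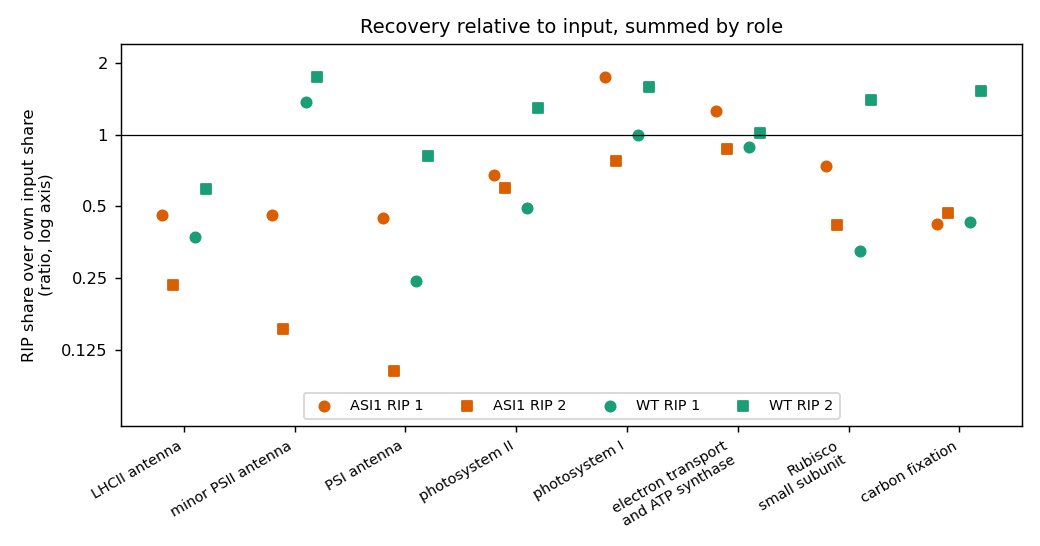
Share of the counts outside rRNA in each RIP library divided by the share in the input of its genotype (ratio, log axis) for the 8 role groups, ASI1 RIP in orange and WT RIP in green, replicate 1 as circles and replicate 2 as squares. WT RIP replicate 2 is the highest point in 6 role groups, and ASI1 RIP lies below both WT RIP points for the minor photosystem II antenna alone.

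The inputs differed too. The summed share of the 44 genes in the ASI1 input was 0.496 times that in the WT input (exact counting interval 0.465 to 0.529). The ratio was below 1 for 31 of the 44 genes, with a median of 0.624, and for 29.6% of all shared genes. The shared genes had a median of 6.18 counts in the WT input, against 87.6 for the 44. At few counts the ratio follows the worth of a count, and PETE1, at about 1 count in each input, had 2.58. The 29.6% is therefore not a background matched for abundance. The counting interval of the ratio lay below 1 for 21 of the 44 genes and above 1 for 1, CA1. It was not computed for all shared genes. LHCB3 had 346 CPM outside rRNA in the ASI1 input and 3978 in the WT input, a ratio of 0.0869 (0.0361 to 0.169). RBCS2B had 346 and 3772 CPM outside rRNA in these inputs, a ratio of 0.0916 (0.0381 to 0.179). GAPB had 821 and 4997, a ratio of 0.164 (0.101 to 0.264). The minor antenna genes summed to 0.960 times the WT input (0.771 to 1.18), and for LHCB5 the ratio was 1.06 (0.801 to 1.4). With 1 library each, these ratios have no replicate check.

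Replicates differed by a median of 2.75-fold for the photosynthesis genes in ASI1 RIP and 2.67-fold in WT RIP, and by more than 5-fold for 14 and 9 of them. The medians over all shared genes above 0 in both libraries were 2.4-fold in ASI1 RIP and 4.40-fold in WT RIP. Of the 44 genes, 33 were higher in replicate 1 of ASI1 RIP and 9 were higher in replicate 1 of WT RIP, against 1261 and 1026 of all 2319 shared genes. The widest gap was that of LFNR1 in ASI1 RIP, at 618 and 2.88 CPM outside rRNA. Across the 44 genes Spearman's rho between replicates was 0.51 in ASI1 RIP and 0.57 in WT RIP, and 0.76 between the ASI1 input and the WT input. Across all shared genes it was 0.10 between replicates in ASI1 RIP and 0.18 in WT RIP. Genes are not independent replicates in these values, which also follow shared base levels and depth.

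Within gene families the division of counts varied from library to library. LHCB1.3 took 52.8% and 69.8% of the counts of the LHCB1 copies in ASI1 RIP, 36.0% and 56.9% in WT RIP, 60.6% in the ASI1 input and 59.4% in the WT input. In ASI1 RIP replicate 2 LHCB1.1 took 0.328%, LHCB1.2 1.31% and LHCB1.4 0.98%, against 1.35%, 11% and 12% in replicate 1. For the LFNR pair, whose coding sequences are 73.5% identical, LFNR1 took 65.9% and 0.794% of the counts in ASI1 RIP, 95% and 94.0% in WT RIP, 47.1% in the ASI1 input and 70% in the WT input. LHCB4.2 took 16.4% and 60.1% of the counts of LHCB4.1 and LHCB4.2 in ASI1 RIP, 86.0% and 63.4% in WT RIP, 48.6% in the ASI1 input and 34.4% in the WT input. The pair PSAD1 and PSAD2 gave PSAD1 62.5% and 74.8% in ASI1 RIP, 97.3% and 60.2% in WT RIP, 54.5% in the ASI1 input and 27.0% in the WT input. In LHCB4 the share of the second copy was above both inputs in both WT RIP libraries, and in PSAD the share of PSAD1 was above both inputs in all 4 RIP libraries. RBCS3B took 39.7% and 49.0% of the RBCS counts in ASI1 RIP, 60.7% and 41.3% in WT RIP, 32.3% in the ASI1 input and 32.9% in the WT input, above both inputs in all 4 RIP libraries. The 95% Wilson interval of its ASI1 input share, 25.1% to 41.0%, held the 39.7% of ASI1 RIP replicate 1.

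**Figure D5:**
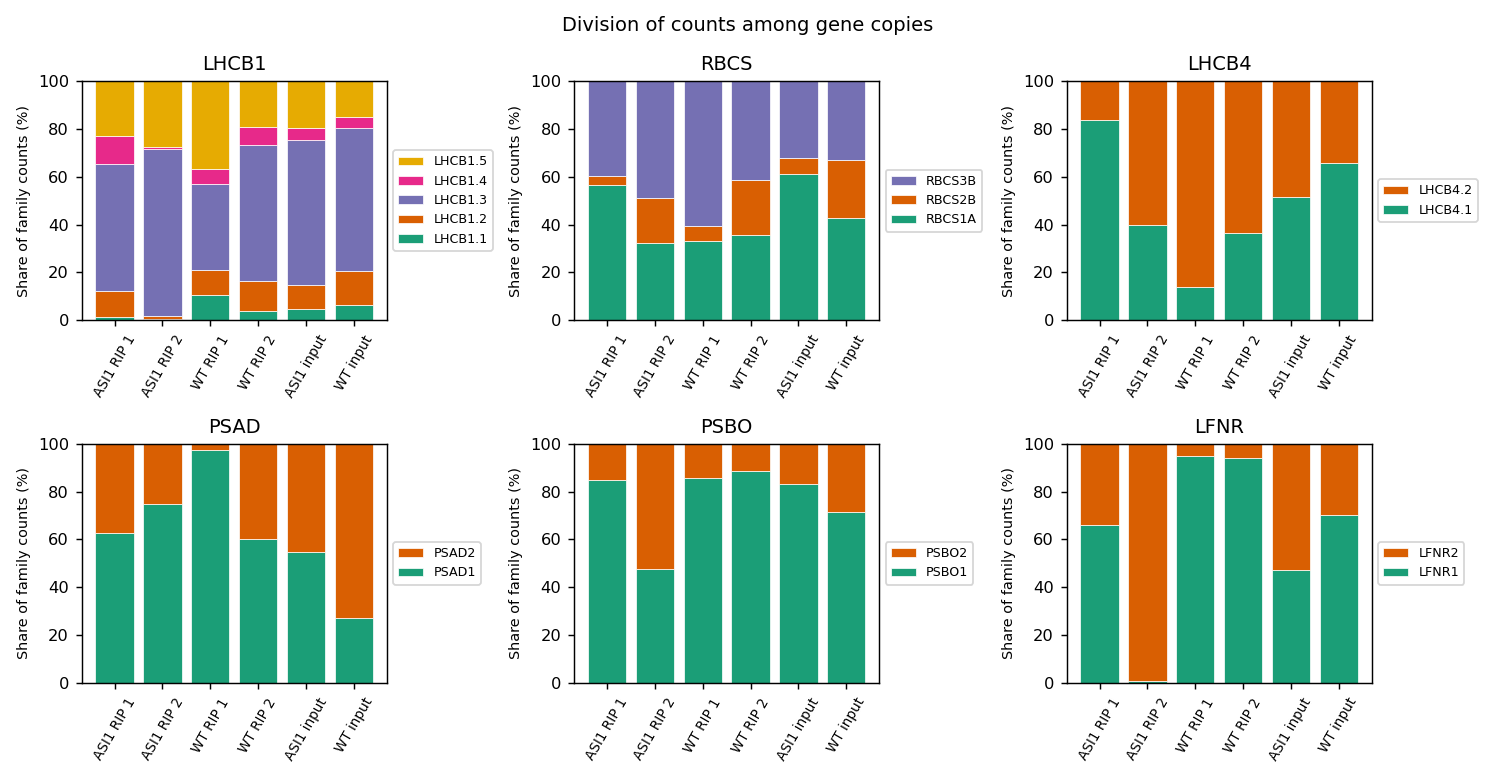
Share of the counts of a gene family (%) that each listed copy took in each library, for LHCB1, RBCS, LHCB4, PSAD, PSBO and LFNR. The copies of LFNR differ in order between ASI1 RIP replicate 2, where LFNR1 has 0.794%, and WT RIP, where it has 95% and 94.0%.

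Levels of different genes were compared per kilobase of exon. By this measure LHCB1.3 ranked 1 of 44 in all 4 groups, with means of 2598 CPM outside rRNA per kb in ASI1 RIP and 5201 in WT RIP, 8109 in the ASI1 input and 12328 in the WT input. PSAF ranked 2 in ASI1 RIP and 19 in WT RIP, 12 in the ASI1 input and 9 in the WT input. PSBP1 ranked 6 in ASI1 RIP and 37 in WT RIP, and CA1 ranked 43 in ASI1 RIP and 16 in WT RIP. Of the 43 steps between neighbours in the order, 1 in ASI1 RIP and 1 in WT RIP exceeded the median fold between replicates, so neighbouring ranks mostly did not differ beyond the spread. The photosynthesis genes were shorter than the shared genes at large, with a median of 1297.5 exonic bases against 2138 and a median of 3 exons against 5, and 13 of the 44 (29.5%) had a single exon, against 10.1%.

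Other genes of chloroplast metabolism showed no call either, in any of the 4 comparisons with edgeR. Of 13 further Calvin cycle enzymes, 10 were in both tables, 6 of which were lower in both ASI1 RIP libraries than in both WT RIP libraries and 0 higher, against 4.74% and 26% of all shared genes. The summed level of the 13, each in the tables that list it, was 3286 and 2019 CPM outside rRNA in ASI1 RIP, 8918 and 10320.4 in WT RIP, 4664 in the ASI1 input and 11548 in the WT input. These ASI1 and WT sums run over different genes. The median log2 fold of ASI1 RIP over WT RIP was -1.45 over the 10 enzymes in both tables and -1.45 over 9 of 14 photorespiration genes, of which 4 were lower and 2 higher without overlap, against the same 4.74% and 26%. It was -0.73 over 6 of 23 chlorophyll synthesis genes and 0.84 over 4 of 16 further thylakoid proteins, and the median of all genes tested, 1.89, was above each of these list medians. Of the 7 chlorophyll synthesis genes in both tables, 1 was lower and 0 higher without overlap. Of the 4 thylakoid proteins, 0 were lower and 1 higher, against the same shares of all shared genes. Of 6 regulators of photosynthesis genes 1 was tested, PIF4, a transcription factor that acts below phytochrome, with 8.82 and 1448 CPM outside rRNA in ASI1 RIP, 0 and 30.4 in WT RIP, 216 in the ASI1 input and 66.9 in the WT input. GLDP1, a subunit of glycine decarboxylase, was the most abundant of the photorespiration genes in both tables. It had 179 and 211 CPM outside rRNA in ASI1 RIP and 401 and 3427 in WT RIP. GAPA-2, the most abundant of the further Calvin cycle enzymes in both tables, had 235 and 5.77 in ASI1 RIP and 268 and 1257 in WT RIP. Both GLDP1 and GAPA-2 separated the genotypes. For GAPA-2 the value in WT RIP replicate 1 rested on 6.23 counts. Its gap to ASI1 RIP replicate 1 was smaller than 1 such count, worth 42.9 CPM outside rRNA. PORB, which makes chlorophyllide in light, had 1382 and 54.8 in ASI1 RIP and 312 and 943 in WT RIP, and PDE334, an ATP synthase subunit, had 634 and 935 in ASI1 RIP and 89.2 and 1237 in WT RIP, so both of these overlapped. Of the root markers in both tables the most abundant, PYK10, had 454 and 170.2 CPM outside rRNA in ASI1 RIP and 312 and 193 in WT RIP.

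In the authors' deposited tables, whose totals include rRNA, the median log2 fold of RIP over input was -0.58 over the 44 photosynthesis genes of the ASI1 table, with 12 above 0 and 32 below, against 0.46 for all its genes. In the authors' deposited table of WT it was 0.90 over 52 photosynthesis genes, with 37 above 0 and 15 below, against -0.63 for all genes. The lowest p-value of a photosynthesis gene in the authors' deposited tables was 0.0942 in ASI1 and 0.311 in WT, and every FDR there was 1.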

How the data were processed

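Per the file headers, each genotype's deposited table holds expected counts (estimated reads per gene), CPM of listed totals, log2 fold, mean log2 CPM, and a p-value and FDR from edgeR. The submitters' processing notes name STAR 2.6.0c, Salmon 0.10.2 and edgeR; their roles, the build and the counting strand are not stated there. Genes were matched by identifier (100%) to TAIR10.1. Expected counts were rounded and fitted with edgeR 4.0.16 (R 4.3.3; quasi-likelihood, filterByExpr) over 2319 genes in both tables, without 4 rRNA genes. Library sizes were the counts outside rRNA. The 6 libraries formed 4 groups with 2 residual degrees of freedom and a common dispersion of 2.17. P-values were Benjamini-Hochberg adjusted over all 2233 genes tested. DESeq2 1.42.0 with poscounts, TMM, no filter, rRNA genes kept, each table alone, a replicate block and leaving out each RIP library were alternatives. The script was tested on simulated data with deeper libraries, and the recovery it had to reach was set at a far lower dispersion. That test does not measure power in these data. The genes described individually were the 2 most abundant of each role in both tables, genes with at least 20 counts in all 4 RIP libraries, genes with at least 20 in both RIP libraries of one genotype and under 20 in both of the other, and called genes; others named were chosen after their values were seen. Members and lists were chosen with earlier results of these data known.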

Additional observations from a re-analysis of the deposited data

Results flagged for a closer look

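In 10 photosynthesis genes both RIP libraries of one genotype lay above their input and both of the other below. The value given is the log2 difference of enrichments, ASI1 minus WT, from edgeR, and no difference passed that test (0 of 44 called). Both ASI1 RIP values were below and both WT RIP values above the input for 7 of the 44, an order that 2.85% of all shared genes had. These were CA1 (-6.21), PSAN (-4.48), LHCB4.2 (-3.57), LHCB6 (-2.76), PSBX (-2.56), PSBQ1 (-2.52) and LFNR2 (-0.47). The opposite order held for 3, against 12% of all shared genes: PSBP1 (3.39), PSAF (2.4) and PETE2 (1.65). Each input is 1 library, and some of these orders rest on few counts. PSBQ1 had 0 counts in ASI1 RIP replicate 2 and 1.03 in the ASI1 input, PSAN had 1.04 in ASI1 RIP replicate 2 and about 4 in each input, and LFNR2 had 4.16 in WT RIP replicate 1. LHCB6 had 445.9 CPM outside rRNA in WT RIP replicate 1 and 434.5 in the WT input. That gap is smaller than a single count in WT RIP replicate 1, worth 42.9 CPM outside rRNA.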

How the results depend on the processing

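No photosynthesis gene was called in edgeR under any alternative of the 4 comparisons, and DESeq2 called 1 for ASI1 RIP over WT RIP, with 12 genes called in all against 0 in edgeR. Over all genes, calls of ASI1 RIP over input numbered 3, against 1 with TMM, 1 with rRNA kept, 2 without a filter, 0 to 2 without 1 RIP library, and 5 on its own table; for WT RIP over input they numbered 1, against 0 in DESeq2, without a filter, without any 1 RIP library and on its own table. The median log2 fold of the photosynthesis genes for WT RIP over input was -0.17, against 1.02 with TMM, 0.98 with rRNA kept and 1.12 with DESeq2; that for ASI1 RIP over WT RIP was -1.90, against -4.05 with DESeq2. Leaving out 1 RIP library gave -2.18 to -0.55 for ASI1 RIP over input, -0.98 to 0.24 for WT RIP over input, -2.91 to -0.53 for ASI1 RIP over WT RIP and -2.24 to 0.35 for the difference. Among the 19 genes described individually, the folds of ASI1 RIP over WT RIP that changed sign were PSBP1 (-0.27), LFNR2 (-1.12), ATPC1 (-0.71) and PSAF (-1.63) with DESeq2, PSAF with TMM (-0.19) and with rRNA kept (-0.14), and, over the libraries left out, PETE2 (-1.26 to 0.19) and LHCA2 (-2.04 to 0.62). The cause was not tested. The summed share was 3.74% in the ASI1 input and 8.44% in the WT input without the most abundant gene, and 9.95% in the WT input over all 52 listed genes against 9.55% over the 44 in both tables. With a replicate block the medians were -1.09, 0.03, -2.06 and -1.29 in the order above, with 0 photosynthesis genes called and 2 genes called in all for WT RIP over input. The main fit did not pair the replicate numbers. The deviations of same-numbered libraries correlated at -0.000576 over 2319 genes and -0.127 over the 44. With replicates that correlated so weakly across all shared genes, these values cannot show whether same-numbered libraries were prepared together. Of the refits of these 19 genes, 157 kept their direction and side of the threshold, 8 changed sign and 1, CA1 with DESeq2, passed it. Over all photosynthesis genes fitted, 5 changed sign with DESeq2, 2 with TMM, 2 with rRNA kept and 0 under the block or without a filter, and leaving out 1 RIP library changed 1 to 9, the highest without WT RIP replicate 2. The 2 RIP libraries a group, single inputs and WT RIP replicate 1, with 23304 counts, limit what could be detected. The medians with rRNA kept and under the block, and the background of genes with at least 20 counts in the WT input, were chosen after seeing the data.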
